A study of Mus musculus with 36 samples.

Results

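Primary hepatocytes lacking Nampt were compared, after 24 h in culture, with the cell suspension from which they had been plated. The comparison was defined by genotype and sample type and not by any measured value. It comprised 12 of the 36 libraries of the series, namely 6 HNKO primary hepatocyte (PH) libraries and 6 HNKO cell suspension (CS) libraries, and the same 6 mice (540, 542, 546, 552, 562 and 566) gave 1 library of each kind. All differences are PH minus CS.

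HNKO mice carried floxed Nampt alleles (Nampt fl/fl) and 1 copy of Cre under the albumin promoter (Alb-Cre +/-), so that Nampt was deleted in cells that express albumin and retained in other liver cells. WT mice were floxed littermates without Cre. All were female on a C57BL6 (BomTac) background and had eaten a purified diet of defined L-amino acids for 3 to 5 weeks, starting at 10 to 12 weeks of age. Both sample types came from livers perfused with collagenase. The CS was the washed suspension, pelleted before plating, from the liver remaining after removal of the median lobe. The PH were cells of that suspension kept on collagen-coated plates. Per the study's methods, the culture medium held dexamethasone, a glucocorticoid, and insulin. The methods also state that the PH were detached with trypsin and EDTA before pelleting, a step not described for the CS. The liver (L) libraries came from the median lobe before collagenase, and their values are given beside the others without a test. The effects of plating, time in culture, medium, detachment with trypsin and the selection of cells that attached cannot be told apart in this design.

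Nampt encodes the enzyme that converts nicotinamide to nicotinamide mononucleotide, the step that governs recycling of nicotinamide into NAD. Hepatocytes can also make NAD from tryptophan and from nicotinic acid. Hepatocytes placed in monolayer culture are known to lose liver functions such as bile acid synthesis, gluconeogenesis and drug metabolism, while they spread, build stress fibers and express inflammatory genes.

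In HNKO cells, 11310 of 14932 tested genes (75.7%) differed between PH and CS at an adjusted p under 0.05, 5693 higher (38.1%) and 5617 lower (37.6%) in PH. A change of at least 2-fold was called for 2811 genes that rose (18.8%) and 3848 that fell (25.8%). At 4-fold or more, 1041 genes rose (6.97%) and 2268 fell (15.2%). The 6 libraries of each group did not overlap, with PH above CS, for 4002 genes (26.8%), and with PH below CS for 3928 (26.3%). Of the called genes, 9821 moved the same way in all 6 mice (86.8%), as did 10065 of all tested genes (67.4%). The median log2 fold change over tested genes was 0.03, with quartiles of -1.07 and 0.79, and these shares are the background for every gene list that follows. With library totals alone as the scale, the median rose by 0.63 and the calls became 8641 higher and 3578 lower, so every direction is relative to the composition of the library.

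Total counts were 14157949 to 20350519 in CS and 9614358 to 19689114 in PH. The share of counts from mitochondrially encoded mRNAs was 4.70 to 12.6% (median 6.86%) in CS and 2.61 to 3.33% (median 2.88%) in PH. The 50 most abundant genes held 33.2 to 41.7% of counts in CS and 23.3 to 26.6% in PH. Both shares were lower in PH in 6 of 6 mice (exact sign-flip permutation test, two-sided, p = 0.03125, the smallest that 6 pairs allow, adjusted p = 0.04375 over 7 library measures). In bulk libraries, fewer cells of a type and less RNA per cell cannot be told apart. Against the other libraries of their own group, both libraries of mouse 552 had the lowest mean Pearson correlations of log2 CPM (0.961 in CS and 0.966 in PH, against 0.973 to 0.978 for the others). Spearman correlations with all libraries of the same sample type, both genotypes included, were also lowest for this mouse among the HNKO CS and PH libraries (0.9625 in CS and 0.96 in PH, against 0.9697 to 0.9796), and results that turn on this mouse are given with and without it.

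Nampt (chr12:32819545-32853349, GRCm38) was 27.8 to 59.1 CPM (median 39.4) in HNKO CS and 69.1 to 87.3 CPM (median 81.7) in HNKO PH, where CPM is counts per 1000000 after TMM scaling. The groups did not overlap, and the level was higher in PH in 6 of 6 mice (log2 fold change 0.92, SE 0.20, adjusted p = 0.00013, edgeR). An exact sign-flip permutation test over the 6 mice gave p = 0.03125. WT libraries had 58.5 to 159 CPM (median 103) in CS and 175 to 240 CPM (median 201) in PH, a log2 fold change of 1.03. The change in HNKO differed from that in WT by -0.11 on the log2 scale (SE 0.28, adjusted p = 0.913). All HNKO PH libraries lay below all WT PH libraries. The count covers the whole gene, so fragments from exons outside the floxed part are included.

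The largest rises were in genes close to silent in the suspension. Cxcl5 (chr5:90759360-90761624), a neutrophil-attracting chemokine, had 1 count over the 6 CS libraries and 9.25 to 274 CPM (median 44.2) in PH, a ratio of 7328 with a 95% counting interval of 1315 to 289500. Cxcl3, another such chemokine, had 3 counts in CS and 16 to 362 CPM (median 60.5) in PH, a ratio of 3215 (1100 to 15590). Csf3, the granulocyte colony-stimulating factor, had 1 count in CS and 2.37 to 64.9 CPM (median 13.7) in PH, a ratio of 1972 (353.7 to 77930). These 3 genes encode signals to neutrophils, and their levels in PH spread widely between mice. Intervals of this kind cover counting error only. Npy, which encodes neuropeptide Y, had 1 count in CS and 9.16 to 50.4 CPM (median 29.9) in PH, a ratio of 2301 (412.7 to 90900). Adora2b, an adenosine receptor, had no count in CS and 6.36 to 20 CPM (median 9.68) in PH, at least 310-fold higher with CS set at 3 counts over the group.

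Saa3, an acute phase serum amyloid, was 3.47 to 8.54 CPM (median 4.55) in CS and 1129 to 8597 CPM (median 2165) in PH (log2 fold change 9.22, SE 0.92, adjusted p = 8.22e-11), and its count is uncertain because the Saa genes are close copies. Fosl1, a partner of Jun in AP-1, was 0 to 0.18 CPM (median 0.0381) in CS and 18 to 58 CPM (median 38.5) in PH (log2 fold change 8.85, SE 0.50, adjusted p = 7.97e-17). Sprr1a, a squamous cell envelope protein also induced in injured tissue, was 0.242 to 2.1 CPM (median 0.685) in CS and 244 to 650 CPM (median 353) in PH. Every PH library lay far above every CS library for these 3 genes. Mmp24, a membrane-bound matrix metalloproteinase, had log2 fold change 8.38 ± 0.43 (SE). Gml, Gml2 and Psg22 complete the 12 largest rises, with mean levels in PH of 24.4, 22.4 and 29.8 CPM, and belong to families of similar sequence whose counts may be shared among members. Gml had 1 count over the CS libraries, a ratio of 1951 (349.9 to 77100). Single mice moved some of these fitted values. The fitted log2 fold change of Cxcl5 was 11.87, 10.66 without mouse 552 and 13.40 without mouse 542, and that of Csf3 was 10.07, 9.18 without mouse 552 and 11.44 without mouse 542. That of Npy was 10.49 and 11.68 without mouse 562, and that of Gml was 10.21 and 11.47 without mouse 540. Likewise, without mouse 552 the log2 fold change of Saa3 was 8.52, without mouse 562 that of Fosl1 was 9.44 and without mouse 542 that of Gml2 was 11.55, from 8.31.

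The largest falls included metabolic genes of the hepatocyte and genes of endothelium. Cyp7a1 (chr4:6265612-6275633), the rate-limiting enzyme of bile acid synthesis, was 15.5 to 142 CPM (median 94.5) in CS and 0 to 0.231 CPM (median 0.025) in PH (log2 fold change -10.23, SE 0.80, adjusted p = 2.78e-13). Cyp8b1, which sets the proportion of cholic acid, was 183 to 455 CPM (median 270) in CS and 0 to 0.867 CPM (median 0.225) in PH (log2 fold change -9.77, SE 0.63, adjusted p = 1.7e-15). G6pc, the glucose 6-phosphatase that releases glucose from the hepatocyte, was 251 to 1029 CPM (median 746) in CS and 0.151 to 1.45 CPM (median 0.391) in PH (log2 fold change -10.04, SE 0.85, adjusted p = 1.59e-12). Each of these genes lost nearly all of its signal in every mouse, and without mouse 562 the log2 fold changes of Cyp7a1 and Cyp8b1 were -11.06 and -10.38. Pck1, the cytosolic enzyme that commits carbon to gluconeogenesis, was 1093 to 3420 CPM (median 2605) in CS and 0.983 to 10.5 CPM (median 3.6) in PH. Acot3, a peroxisomal acyl-CoA thioesterase, was 48.3 to 243 CPM (median 134) in CS and 0.0754 to 0.629 CPM (median 0.266) in PH. Nlrp6, a cytosolic sensor protein, was 166 to 247 CPM (median 216) in CS and 0.118 to 0.983 CPM (median 0.363) in PH. Log2 fold changes for these 3 genes were -9.15, -8.65 and -8.82.

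Clec4g, a lectin of liver sinusoidal endothelium, fell, at 75.4 to 196 CPM (median 97.8) in CS and 0 to 0.289 CPM (median 0.193) in PH (log2 fold change -9.44, SE 0.33, adjusted p = 8.03e-22). Cd300lg, also expressed by endothelium, fell, at 26.9 to 52.5 CPM (median 29.6) in CS and 0 to 0.173 CPM (median 0.0451) in PH. The remaining members of the 12 largest falls were Cux2, a transcription factor higher in female liver, Sucnr1, the succinate receptor, Csrp3, a LIM protein, and BC024386, with log2 fold changes of -8.81, -8.21, -8.37 and -8.50. None of the 24 genes had CS and PH libraries that overlapped. Without mouse 546 the value of Csrp3 was -9.45, and without mouse 562 that of Cd300lg was -9.93.

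**Figure D1:**
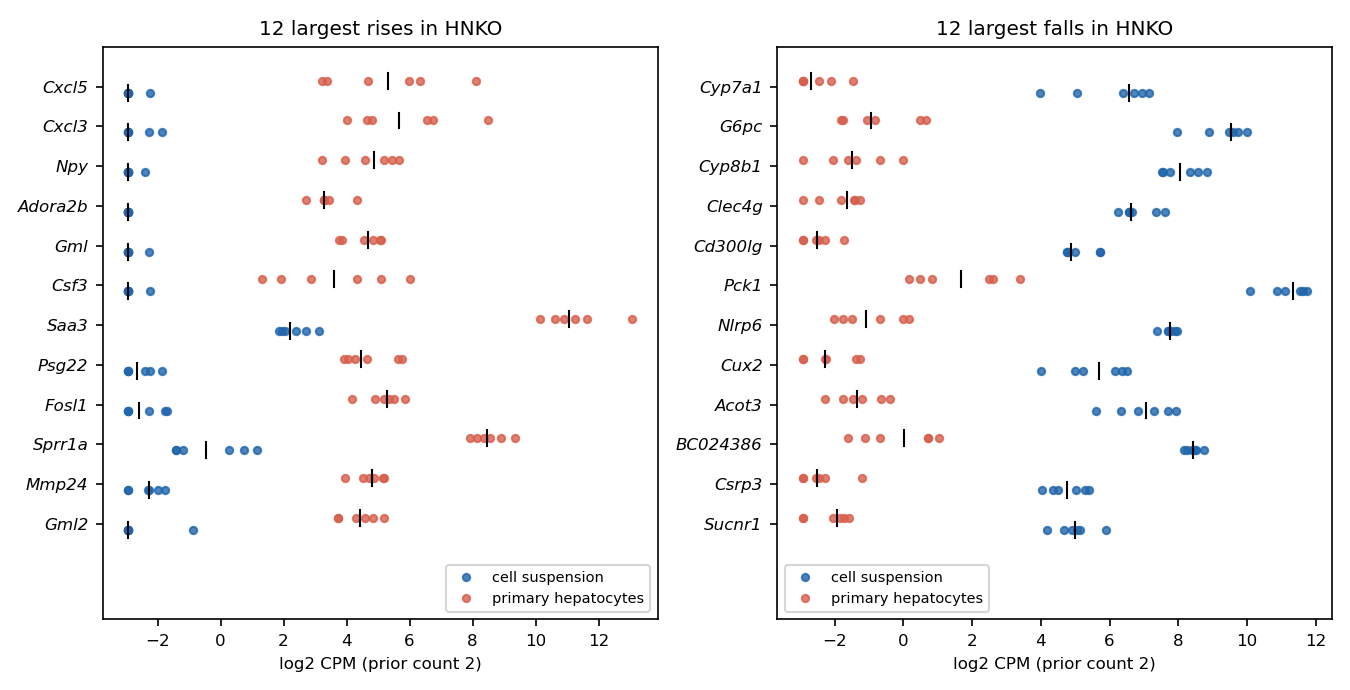
Levels of the 12 genes with the largest rises and the 12 with the largest falls in each HNKO library, on a log2 CPM axis (prior count 2), with 1 point per mouse in CS and in PH. The PH points lie apart from the CS points for each of the 24 genes, and the PH points of Cxcl5, Cxcl3 and Csf3 spread the most among the rises.

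Most lists of liver functions fell. Of 30 secreted plasma proteins, 28 fell (93.3%) and 2 rose, with a median log2 fold change of -2.23. Alb, the main plasma protein, was 85390 to 146400 CPM (median 127800) in CS and 27730 to 42110 CPM (median 34320) in PH (log2 fold change -1.87, SE 0.18, adjusted p = 6.77e-11), and its share of counts was 7.91 to 11.9% in CS and 3.66 to 5.54% in PH. Plg, which encodes plasminogen, and Serpinc1, which encodes antithrombin, had log2 fold changes of -3.22 and -2.60. The 2 that rose bind free hemoglobin and heme. Hp, haptoglobin, was 2393 to 3908 CPM (median 2798) in CS and 4501 to 11220 CPM (median 7204) in PH, and Hpx, hemopexin, was 5483 to 6955 CPM (median 5916) in CS and 7217 to 12800 CPM (median 10180) in PH (log2 fold changes 1.28 and 0.75).

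Among 30 hepatocyte transcription factors, 23 fell and 2 rose, with a median of -1.53. Nr1i3, the constitutive androstane receptor that drives drug-metabolizing enzymes, was 193 to 423 CPM (median 288) in CS and 0.433 to 1.5 CPM (median 1.29) in PH (log2 fold change -8.07, SE 0.42, adjusted p = 7.58e-18). Falls were smaller for Nr1h3, an oxysterol receptor, and for Nr5a2, a regulator of bile acid genes, with log2 fold changes of -1.67 and -1.39. Hnf4a, the nuclear receptor that maintains hepatocyte identity, was chosen after its values were seen. It was 443 to 677 CPM (median 653) in CS and 181 to 351 CPM (median 241) in PH, log2 fold change -1.25 ± 0.16 (SE), and its 2 groups did not overlap.

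Of 39 genes of P450 and conjugation enzymes, 32 fell and 3 rose, with a median of -3.20. Aox3, an aldehyde oxidase, was 198 to 326 CPM (median 244) in CS and 0.315 to 3.55 CPM (median 0.851) in PH (log2 fold change -7.65, SE 0.40, adjusted p = 9.31e-18, and -8.26 without mouse 540). Cyp3a25, a drug-metabolizing P450, had a log2 fold change of -6.25. Cyp2e1, the ethanol-oxidizing P450 of pericentral hepatocytes and chosen after its values were seen, was 3065 to 8489 CPM (median 5599) in CS and 87.7 to 501 CPM (median 277) in PH. Members that rose included Cyp2b10, a target of Nr1i3, with 1.37 to 3.36 CPM (median 3.02) in CS and 8.1 to 50.9 CPM (median 12.3) in PH, and Gstp1, a glutathione transferase, with 87.6 to 113 CPM (median 97.4) in CS and 223 to 371 CPM (median 285) in PH. Counts of the Cyp2 genes may be shared among close copies.

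Most genes of both ends of the liver lobule fell. Of 20 pericentral genes, 19 fell and none rose, with a median of -3.33, and of 20 periportal genes, 18 fell and 2 rose, with a median of -4.70. Notum, a secreted Wnt inhibitor of pericentral cells, was 28.4 to 60.2 CPM (median 51.3) in CS and 0.203 to 0.472 CPM (median 0.286) in PH, and Rgn, regucalcin, was 1175 to 1911 CPM (median 1359) in CS and 17.6 to 43.4 CPM (median 32.1) in PH. On the periportal side, Uroc1, a histidine-degrading enzyme, was 542 to 771 CPM (median 675) in CS and 4.66 to 19.2 CPM (median 11.8) in PH. Sox9, a transcription factor of bile ducts and of hepatocytes next to them, was 1 of the 2 periportal members that rose, at 2.42 to 3.77 CPM (median 2.81) in CS and 28.2 to 59.9 CPM (median 43) in PH (log2 fold change 3.90, SE 0.28, adjusted p = 3.08e-14). Cdh1 was the other.

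All 30 members of the urea cycle and amino acid catabolism list fell, with a median of -4.74, the lowest median of the 41 lists. Otc, a urea cycle enzyme, was 320 to 683 CPM (median 457) in CS and 8.52 to 18.6 CPM (median 12.6) in PH, and Mat1a, which makes S-adenosylmethionine in the liver, was 1971 to 4242 CPM (median 3760) in CS and 28.6 to 73.2 CPM (median 47.4) in PH. Of 16 genes of gluconeogenesis and glycogen, 15 fell, with a median of -3.995. Gys2, the liver glycogen synthase, was 152 to 518 CPM (median 275) in CS and 0.754 to 5.03 CPM (median 2.05) in PH, and Slc2a2, the liver glucose transporter, was 449 to 767 CPM (median 550) in CS and 2.44 to 9.19 CPM (median 4.79) in PH. Fbp1 had a log2 fold change of -5.24. The exception was Pck2, the mitochondrial counterpart of Pck1, which rose, at 2.78 to 9.16 CPM (median 4.18) in CS and 9.08 to 18.3 CPM (median 14.9) in PH, with groups that overlapped slightly.

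Genes of glycolysis and linked transport moved the opposite way, with 15 of 19 higher and 1 lower and a median of 1.77. The list held isoforms typical of other tissues and also enzymes already abundant in the suspension. Of the latter, Gapdh and Ldha averaged 686.5 and 702.4 CPM in CS. Pkm, the pyruvate kinase of non-hepatic tissues, was 15.6 to 61 CPM (median 22.3) in CS and 356 to 472 CPM (median 414) in PH (log2 fold change 3.92, SE 0.27, adjusted p = 9.46e-15). Slc16a3, the lactate exporter, was 0.0763 to 0.879 CPM (median 0.23) in CS and 6.21 to 78.2 CPM (median 53.5) in PH, and Slc2a1, the widespread glucose transporter, was 6.22 to 13.7 CPM (median 9.28) and 109 to 146 CPM (median 130). The log2 fold change of Slc16a3 was 6.95, and 7.64 without mouse 552. Aldoa had a log2 fold change of 2.11. The member that fell was Hk3, a hexokinase found mainly in leukocytes, at 3.14 to 19.1 CPM (median 5.48) in CS and 0.0508 to 3.62 CPM (median 0.485) in PH (log2 fold change -2.85, and -3.49 without mouse 552).

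Most lipid and sterol genes fell. Of 29 fatty acid oxidation genes, 27 fell, with a median of -2.17. Lipogenic genes fell in 18 of 22 cases, with a median of -2.62, and the mean change per mouse ranged from -2.96 to -1.54. Fasn, fatty acid synthase, was 500 to 3188 CPM (median 2365) in CS and 100 to 148 CPM (median 126) in PH, and Srebf1, its transcriptional activator, was 393 to 1038 CPM (median 718) and 53.6 to 69.6 CPM (median 64). The suspensions thus spanned a wider range than the cultures. Of 24 cholesterol synthesis genes, 20 fell and 1 rose, with a median of -1.82. Insig1, a sterol sensor of the pathway, and Stard4, a sterol carrier, had log2 fold changes of -4.18 and -3.61.

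Of 23 genes of bile acid synthesis and transport, 21 fell, with a median of -4.43. Besides Cyp7a1 and Cyp8b1, Slc10a1, the sodium-dependent bile acid importer, was 635 to 986 CPM (median 865) in CS and 3.5 to 9.77 CPM (median 7.05) in PH, and Abcb11, the canalicular bile salt pump, was 673 to 978 CPM (median 847) in CS and 13.1 to 29 CPM (median 21) in PH. Akr1d1, a reductase of bile acid synthesis, had a log2 fold change of -7.16. Abcc3 and Abcc4, exporters of the basolateral membrane, were the 2 that rose, and Abcc4 was 3.58 to 10.3 CPM (median 6.58) in CS and 14.7 to 40.9 CPM (median 19.3) in PH.

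Many genes of endocrine and circadian control also fell. Of 18 genes of the growth hormone and IGF axis, 12 fell and 1 rose, with a median of -1.61, with Ghr, the growth hormone receptor, at -3.49 and Igf1, its endocrine target, at -2.95 on the log2 scale. Of 19 clock genes, 11 fell and 2 rose, with a median of -1.23, and 4 rose with the mouse as a block in a fit of the 12 libraries. Dbp, a clock output factor, was 29.7 to 240 CPM (median 75.9) in CS and 0.0548 to 2.2 CPM (median 0.987) in PH, and Nr1d1, a clock repressor, was 150 to 244 CPM (median 197) and 8.55 to 19.8 CPM (median 11.4). The time of day of collection was not given for either sample type, so a difference in clock time was not tested. The glucocorticoid-responsive list was split, with 8 of 20 higher (40%) and 8 lower (40%). These shares were near those over all tested genes (38.1% and 37.6%). The part of the dexamethasone in the culture medium was not tested. Tat, a tyrosine-degrading enzyme, and Tsc22d3, a classical glucocorticoid target, fell (-5.45 and -1.46), whereas Cebpd, a transcription factor of the acute phase, rose (2.81).

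**Figure D2:**
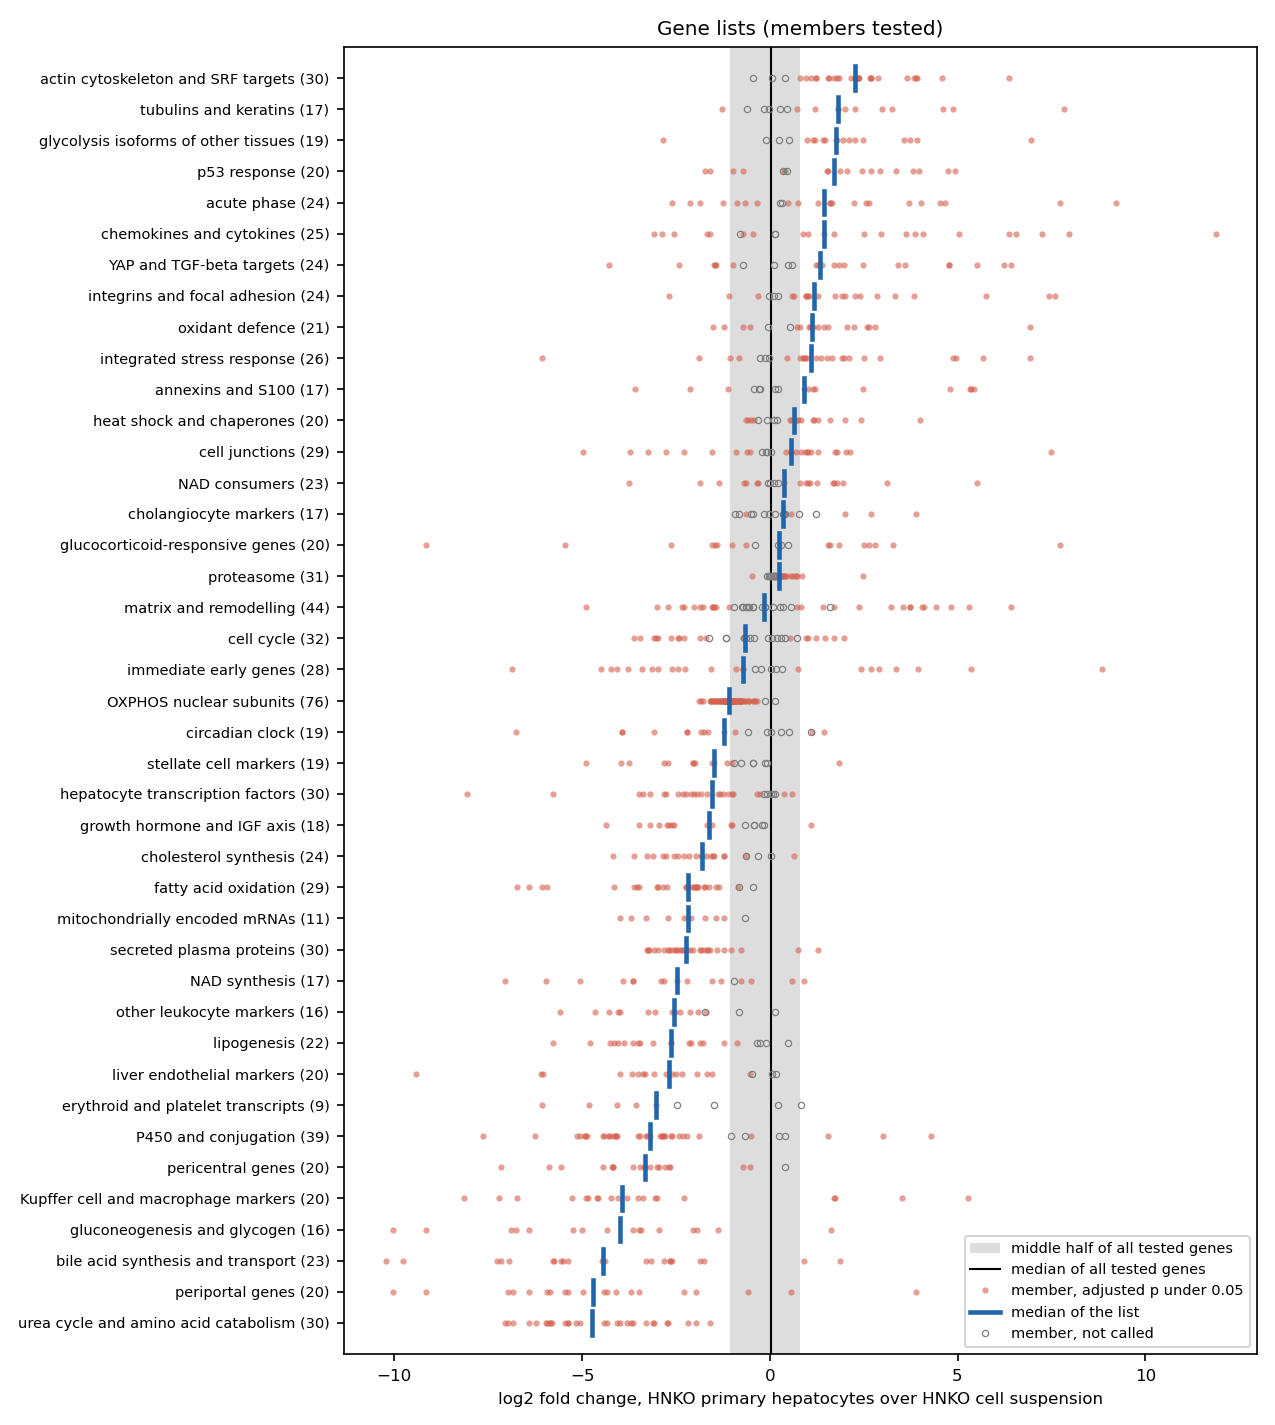
Gene lists in HNKO PH against HNKO CS. The horizontal axis gives the log2 fold change of the list, with 1 point per tested member, filled where called, blue bars for list medians, and a gray band for the interquartile range of all 14932 tested genes, whose median is 0.03. Urea cycle and amino acid catabolism lies lowest (median -4.74) and actin cytoskeleton and SRF targets highest (median 2.27).

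On a list of NAD synthesis and related steps, 17 of 21 genes were tested, and 14 fell and 2 rose, with a median of -2.46. The tested members included Nnmt, Acmsd and the NAD kinases, which do not make NAD. Genes of the route from tryptophan fell, with Haao, an oxygenase of that route, at 395 to 629 CPM (median 549) in CS and 1.93 to 7.17 CPM (median 2.78) in PH (log2 fold change -7.05, SE 0.30, adjusted p = 1.08e-19), and Kmo, an upstream hydroxylase, at 230 to 296 CPM (median 264) and 4.11 to 10.4 CPM (median 8.77). Qprt, which joins the tryptophan route to NAD, was 166 to 253 CPM (median 222) in CS and 19.7 to 42.8 CPM (median 29.7) in PH. Naprt, the entry enzyme for nicotinic acid, was 91.9 to 147 CPM (median 130) in CS and 13 to 19.6 CPM (median 16.3) in PH, and Nadk2, the mitochondrial NAD kinase, was 123 to 208 CPM (median 162) in CS and 22.3 to 36.1 CPM (median 29.1) in PH. The 2 that rose were Nampt itself and Nadk, the cytosolic NAD kinase, at 194 to 281 CPM (median 270) in CS and 296 to 534 CPM (median 363) in PH. With all mice, no member of the list had a culture change that differed from WT at an adjusted p under 0.05. Without WT mouse 544, 1 of 18 tested members was called, with a higher change in HNKO.

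NAD-consuming enzymes were mixed, with 12 of 23 higher and 7 lower and a median of 0.37. Parp14, an interferon-responsive mono-ADP-ribosyltransferase, was 42.9 to 69.3 CPM (median 54.5) in CS and 426 to 544 CPM (median 476) in PH, and Parp3, which acts in DNA repair, was 42.6 to 53.3 CPM (median 45.2) and 145 to 218 CPM (median 177). Sirt3, the mitochondrial deacetylase, fell, at 69.2 to 111 CPM (median 92.5) in CS and 5.11 to 8.33 CPM (median 7.3) in PH (log2 fold change -3.75, SE 0.16, adjusted p = 6.33e-20). Cd38, an NAD glycohydrolase that in liver is largely a gene of non-parenchymal cells, fell, at 16.4 to 41.3 CPM (median 21.6) in CS and 3.35 to 14.8 CPM (median 5.54) in PH. The mean change of the list was between 0.33 and 0.52 in each of the 6 mice.

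Nuclear subunits of the respiratory chain fell in 74 of 76 cases and rose in none, with a median of -1.09. Ndufb10, of complex I, was 68.8 to 124 CPM (median 116) in CS and 27.1 to 30 CPM (median 29) in PH, and Sdha, of complex II, was 490 to 700 CPM (median 635) in CS and 190 to 237 CPM (median 209) in PH. On library totals alone the median was -0.44, with 56 lower and 4 higher. Of 11 tested mitochondrially encoded mRNAs, 10 fell, with a median of -2.19. Of these, mt-Co2, mt-Co3, mt-Atp6 and mt-Nd3 were barely counted, with means of 1.22 to 2.65 CPM in CS, against 31860 CPM for mt-Co1. In the fit of the 12 libraries with the mouse as a block, 8 were tested and 7 fell, with a median of -1.90. The fall was uneven, with mt-Cytb at -3.29 ± 0.28 and mt-Co1 at -1.44 ± 0.20 (log2 fold change ± SE), both subunits of the chain. The summed level of these mRNAs was 50780 to 137900 CPM in CS and 19720 to 25290 CPM in PH, without overlap. Mouse 552 had the highest mitochondrial share among the CS libraries.

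With TMM scaling, the actin list had the highest median of the 41 lists. Of 30 tested genes of the actin cytoskeleton and SRF targets, 27 rose and none fell, with a median of 2.27. Pdlim7, an adaptor on actin filaments, was 5.56 to 10.4 CPM (median 8.09) in CS and 93.3 to 175 CPM (median 121) in PH (log2 fold change 3.91, SE 0.21, adjusted p = 1.54e-17), and Actn1, which cross-links actin, was 38.3 to 64.2 CPM (median 47.7) and 288 to 469 CPM (median 345). Myh9, non-muscle myosin heavy chain, was 186 to 297 CPM (median 249) in CS and 1002 to 1320 CPM (median 1198) in PH. Among tubulins and keratins, 11 of 17 rose and 1 fell, with a median of 1.82. Krt8 and Krt18, the keratin pair of hepatocytes, rose in parallel, from 222 to 2130 CPM and from 281 to 2216 CPM on average. Tubb6, a tubulin chain, was 7.31 to 21.4 CPM (median 8.77) in CS and 167 to 415 CPM (median 257) in PH.

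Integrin and focal adhesion genes rose in 18 of 24 cases and fell in 3, with a median of 1.17, and the mean change per mouse ranged from 1.58 to 1.84. Tes, a focal adhesion protein, was 0.491 to 2.05 CPM (median 1.58) in CS and 54 to 88.2 CPM (median 79.7) in PH, Itga3, a laminin-binding integrin, rose by 3.83 and Itgav, a vitronectin-binding integrin, by 2.85 on the log2 scale. Itga1, a collagen-binding integrin, moved against them, at 41.8 to 80.7 CPM (median 52) in CS and 4.55 to 11.7 CPM (median 8.86) in PH. Of 24 tested YAP and TGF-beta targets, 14 rose and 6 fell, with a median of 1.34. Ccn2, connective tissue growth factor, was 1.6 to 5.93 CPM (median 4.79) in CS and 115 to 418 CPM (median 162) in PH. Ajuba, a LIM protein of junctions, rose by 3.42. Tgfbi, a secreted adhesion protein, fell, at 32.8 to 153 CPM (median 48.6) in CS and 1.02 to 6.88 CPM (median 2.15) in PH, so members of the list moved both ways.

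Annexins and S100 proteins rose in 9 of 17 cases and fell in 3, with a median of 0.90. Anxa2, a membrane-binding annexin, was 10.4 to 45 CPM (median 18.4) in CS and 819 to 977 CPM (median 855) in PH (log2 fold change 5.33, SE 0.37, adjusted p = 1.35e-14), and S100a11, a calcium-binding partner of annexins, was 1.83 to 11.5 CPM (median 5.37) and 184 to 343 CPM (median 253). Anxa3 was 5 to 15.1 CPM (median 7.37) in CS and 250 to 413 CPM (median 360) in PH. In the list of matrix and remodelling genes, 15 of 44 rose (34.1%) and 13 fell (29.5%). Both shares were below those over all tested genes (38.1% and 37.6%). The median of the list was -0.16 with TMM scaling and 0.44 on library totals alone. Plaur, the urokinase receptor, was 0.403 to 1.64 CPM (median 0.993) in CS and 28.6 to 57.1 CPM (median 41.3) in PH, and P4ha2, a collagen prolyl hydroxylase, rose by 3.75 on the log2 scale. Col18a1, a collagen made by hepatocytes, fell, at 1234 to 1680 CPM (median 1487) in CS and 228 to 376 CPM (median 290) in PH. Junction genes were divided, with 16 of 29 higher and 9 lower. Gjb1, the main gap junction protein of hepatocytes, fell, at 548 to 737 CPM (median 610) in CS and 8.18 to 37.1 CPM (median 16.2) in PH, and Gjb2 was 388 to 533 CPM (median 481) in CS and 17 to 63.7 CPM (median 27.4) in PH.

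Promoter windows of RefSeq (250 bases before to 50 after each start, GRCm38.p6) matched 10800 of the 14932 tested genes by symbol, with 13833 windows. The AP-1 letters TGACTCA or TGAGTCA, on either strand, were in 10.5% of 865 windows of genes that rose at least 4-fold, in 4.72% of 2098 windows of genes that fell at least 4-fold, in 4.22% of windows of tested genes and in 5.20% of all 32851 windows. In the windows of genes that rose at least 4-fold, the other motifs searched were found in 2.2% (CArG box), 14.7% (TEAD) and 0.809% (ATF4 composite), against 1.28%, 12.5% and 0.513% of windows of tested genes. The CArG box, the letters bound by SRF, was in 8 of 29 windows of the actin list (27.6%) and 1.63% of all windows. Genes of the actin list with the box were Fhl2, Vil1, Vcl, Srf, Actg1, Cnn2 and Myl9. Their log2 fold changes were 6.38, 4.59, 2.36, 1.59, 0.81, 0.41 (not called) and -0.45 (not called). In the list of immediate early genes, the box was in 5 of 29 windows (17.2%). Those windows belonged to Egr2 and Zfp36, with log2 fold changes of 0.33 (not called) and -4.08. The TEAD letters GGAATG were in 8 of 16 windows of the YAP and TGF-beta list (50%) and 14.7% of all windows. They were also in 9 of 29 windows of the actin list (31.0%). The ATF4 composite letters TGATGNAAT were in 4 of 27 windows of the integrated stress response list (14.8%) and 0.965% of all windows. The genes with these letters were Gars, Nupr1, Aars and Fgf21, with log2 fold changes of 1.96, 0.91, -0.12 (not called) and -6.06. All 4 motifs were searched on both strands, and none contains another. These shares are descriptions, since the lists were partly built from known targets and a match is not a bound site.

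A stretch around the match, within 250 bases upstream of the transcription start, is shown for 8 genes that rose, so that the letters can be seen with their flanks, with the match in capitals. Fhl2, Vcl, Actg1 and Ankrd1 were chosen after their values were seen. Fhl2, a LIM protein, was 0 to 0.164 CPM (median 0.0748) in CS and 3.24 to 11.7 CPM (median 5.55) in PH. Vcl, vinculin, was 42.4 to 71.9 CPM (median 46.6) in CS and 201 to 324 CPM (median 249) in PH, and Actg1, cytoplasmic gamma-actin, was 80.2 to 219 CPM (median 154) and 200 to 330 CPM (median 277), with overlapping groups. The CArG box is in capitals for these 3 genes.
Fhl2 (chr1:43163962-43164032, minus strand): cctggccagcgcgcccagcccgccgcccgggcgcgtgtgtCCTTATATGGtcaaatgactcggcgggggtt
Vcl (chr14:20929148-20929220, plus strand): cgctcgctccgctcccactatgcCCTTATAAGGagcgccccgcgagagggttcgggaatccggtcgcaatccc
Actg1 (chr11:120348536-120348625, minus strand): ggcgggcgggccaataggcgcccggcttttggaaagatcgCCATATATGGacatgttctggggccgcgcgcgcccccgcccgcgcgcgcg
The TEAD letters are in capitals for Ankrd1, a muscle ankyrin-repeat protein and YAP target, at 0.479 to 1.15 CPM (median 0.791) in CS and 17.6 to 153 CPM (median 49.9) in PH.
Ankrd1 (chr19:36119922-36120094, minus strand): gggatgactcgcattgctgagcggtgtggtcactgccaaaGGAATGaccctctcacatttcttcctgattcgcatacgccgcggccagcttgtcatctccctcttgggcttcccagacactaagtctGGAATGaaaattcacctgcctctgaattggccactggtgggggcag
The AP-1 letters are in capitals for Sprr1a, S100a11, Anxa2 and Plaur, whose levels are given above.
Sprr1a (chr3:92485951-92486067, minus strand): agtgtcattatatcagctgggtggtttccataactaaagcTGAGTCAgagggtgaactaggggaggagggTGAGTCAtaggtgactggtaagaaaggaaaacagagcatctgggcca
S100a11 (chr3:93520320-93520495, plus strand): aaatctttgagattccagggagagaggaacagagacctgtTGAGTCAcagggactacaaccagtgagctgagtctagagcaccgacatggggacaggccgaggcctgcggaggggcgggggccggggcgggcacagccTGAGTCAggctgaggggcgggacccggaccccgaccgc
Anxa2 (chr9:69453548-69453634, plus strand): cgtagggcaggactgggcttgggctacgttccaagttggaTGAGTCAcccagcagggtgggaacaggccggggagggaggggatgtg
Plaur (chr7:24462374-24462460, plus strand): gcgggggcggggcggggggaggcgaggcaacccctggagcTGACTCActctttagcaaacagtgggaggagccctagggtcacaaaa
Ankrd1, Sprr1a and S100a11 each held 2 matches in the stretch shown, and the others 1.

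Immediate early genes, transcription factors that respond quickly to a stimulus, were split between those high in the suspension and those high in culture. Of 28 tested, 15 fell and 8 rose, with a median of -0.71. Fosb was 0.063 to 0.363 CPM (median 0.15) in HNKO liver, 33.1 to 230 CPM (median 124) in CS and 0.809 to 1.36 CPM (median 1.13) in PH (log2 fold change -6.88, SE 0.42, adjusted p = 4.57e-16 for PH minus CS). Fos and Jun, which form AP-1 and were chosen after their values were seen, had the same order, with Fos at 1.13 to 4.24 CPM (median 2.17) in liver, 218 to 551 CPM (median 382) in CS and 9.42 to 30.5 CPM (median 22.1) in PH, and Jun at 7.62 to 47.9 CPM (median 24.2), 364 to 838 CPM (median 599) and 55.3 to 85.2 CPM (median 68.7). In PH these 2 genes remained above every liver library. Zfp36, which destabilizes cytokine mRNAs, was 81.7 to 184 CPM (median 133) in liver, 669 to 1238 CPM (median 969) in CS and 37 to 75.9 CPM (median 55.9) in PH.

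Another set rose in culture. Myc was 2.82 to 16.7 CPM (median 9.64) in CS and 126 to 176 CPM (median 153) in PH, and Klf6, a zinc-finger factor induced by liver injury, was 32.2 to 62.4 CPM (median 42.3) and 401 to 645 CPM (median 434). Fosl2, another AP-1 subunit, rose, at 9.19 to 14.9 CPM (median 12.8) in CS and 66.3 to 110 CPM (median 71.5) in PH, as did Fosl1 with the values above. For Myc, Klf6 and Fosl2 each PH library was above each CS library. Since the contrasts with liver share the CS libraries, levels of the 3 sample types are given only side by side.

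**Figure D3:**
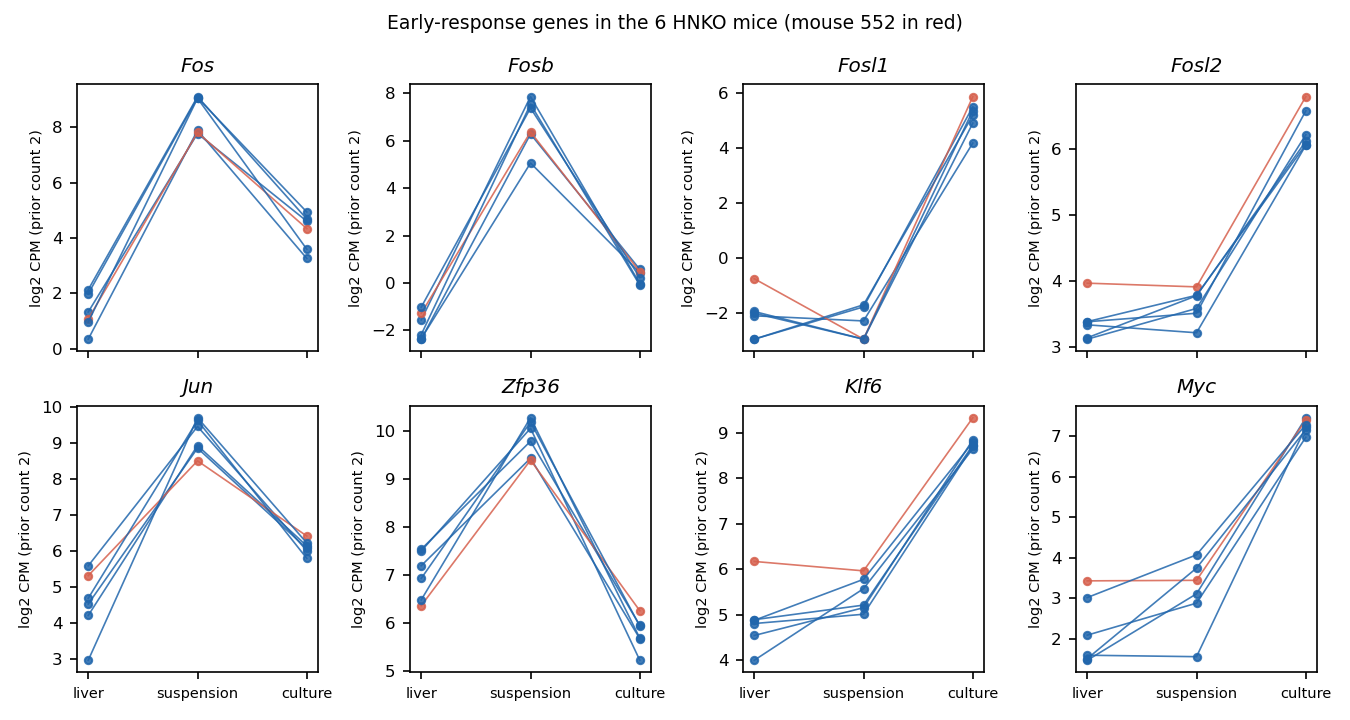
Early response genes in HNKO liver, CS and PH, 1 point per library on a log2 CPM axis (prior count 2), with lines joining libraries of the same mouse. Fos, Fosb, Jun and Zfp36 are highest in CS, whereas Fosl1, Fosl2, Klf6 and Myc are highest in PH.

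More acute phase and inflammatory genes rose than fell. Of 24 acute phase genes, 15 rose and 7 fell, with a median of 1.44. Lcn2, an iron-chelator carrier of the acute phase, was 20.2 to 111 CPM (median 49.8) in CS and 10040 to 15740 CPM (median 13560) in PH (log2 fold change 7.74, SE 0.71, adjusted p = 1.13e-11), and Steap4, a metalloreductase, was 108 to 252 CPM (median 143) and 597 to 1359 CPM (median 890). Hamp, which encodes the iron hormone hepcidin, was among those that fell, at 495 to 1873 CPM (median 1085) in CS and 54.9 to 707 CPM (median 176) in PH, with overlapping groups and a fall in 5 of 6 mice (log2 fold change -2.11, and -2.91 without mouse 552). Of 25 chemokines and cytokines, 15 rose and 7 fell, with a median of 1.43. Ccl2, a monocyte chemoattractant, was 0.645 to 6.81 CPM (median 3.09) in CS and 525 to 1445 CPM (median 780) in PH, and the neighboring Ccl7 was 0.0763 to 1.39 CPM (median 0.366) and 12.1 to 98.9 CPM (median 37.5). Csf1, the macrophage growth factor, rose by 2.97 on the log2 scale. Cxcl12, a homing chemokine, fell, at 244 to 366 CPM (median 333) in CS and 21.3 to 74 CPM (median 29.2) in PH.

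Of 26 genes of the integrated stress response, in which ATF4 raises amino acid synthesis and import, 19 rose and 4 fell, with a median of 1.11. Slc7a11, the cystine importer, was 0 to 0.229 CPM (median 0.0819) in CS and 7.69 to 27.5 CPM (median 13.3) in PH, Asns, asparagine synthetase, was 0.229 to 1.47 CPM (median 0.962) and 13.8 to 43.9 CPM (median 24.1), and Psat1, an enzyme of serine synthesis, was 0.381 to 4.1 CPM (median 2.03) and 46.1 to 106 CPM (median 67.7). Fgf21 and Gdf15, secreted factors of the list, went the other way. Fgf21 fell, at 6.23 to 25.8 CPM (median 14) in CS and 0.0787 to 0.463 CPM (median 0.184) in PH, and Gdf15 was 4.03 to 16.5 CPM (median 10.5) in liver, 43.4 to 169 CPM (median 108) in CS and 21 to 37.2 CPM (median 25.3) in PH. Oxidant defence genes rose in 15 of 21 cases and fell in 4, with a median of 1.12. Gsr, glutathione reductase, rose, at 43.3 to 60.8 CPM (median 52.1) in CS and 305 to 498 CPM (median 332) in PH, Fth1, ferritin heavy chain, by 2.24 and Srxn1, sulfiredoxin, by 2.58, while Gclm, a subunit of the enzyme that makes the glutathione precursor, fell by 1.52 on the log2 scale.

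Of 20 p53 response genes, 14 rose and 4 fell, with a median of 1.71. Bax, which promotes apoptosis, was 14.7 to 21.4 CPM (median 18) in CS and 85.4 to 109 CPM (median 97.8) in PH (log2 fold change 2.45, SE 0.14, adjusted p = 7.6e-17), Tnfrsf10b, a death receptor, was 0.726 to 2.34 CPM (median 0.911) and 32.2 to 45.4 CPM (median 32.8), and Zmat3, an RNA-binding p53 target, was 7.55 to 9.16 CPM (median 8.93) and 57.1 to 73 CPM (median 68.9). Mdm2, the p53 inhibitor, rose by 1.55. Plk3, a stress kinase, fell, at 63.3 to 194 CPM (median 134) in CS and 34.4 to 49.1 CPM (median 38.8) in PH. Heat shock and chaperone genes rose in 12 of 20 cases and fell in 4, with a median of 0.64. Examples were Hspb1, a small heat shock protein, at 5.79 to 13.7 CPM (median 7.07) in CS and 95.5 to 177 CPM (median 116) in PH, and Hsp90aa1, the inducible form of HSP90, at 69.2 to 154 CPM (median 92.6) and 332 to 498 CPM (median 377). Of 31 proteasome genes, 16 rose and 1 fell, with a median of 0.23, and 8 rose when the low-quality liver library was put back. Psmd8, of the regulatory particle, rose by 2.48.

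The result for cell cycle genes depended on mouse 552. Of 32 tested, 12 fell (37.5%) and 7 rose (21.9%), with a median of -0.67, against 37.6% and 38.1% over all tested genes. The mean change per mouse was -1.82 in mouse 552 and -0.34 to 0.53 in the other 5. Without mouse 552 the median was 0.29, with 11 genes higher and 7 lower. With all 6 mice and the mouse as a block in a fit of the 12 libraries, 8 of 30 tested rose and 8 fell, with a median of -0.03. Mki67, a marker of proliferating cells chosen after its values were seen, was 0.915 to 70.1 CPM (median 4.23) in CS and 0.4 to 3.07 CPM (median 0.779) in PH, and the highest CS value was that of mouse 552. Kif11, a mitotic kinesin, was 0.458 to 11.9 CPM (median 1.62) in CS and 0.151 to 0.4 CPM (median 0.264) in PH. The replication helicase genes Mcm6 and Mcm2 rose, Mcm6 at 5.72 to 47.4 CPM (median 11.2) in CS and 50.2 to 79.2 CPM (median 69.6) in PH and Mcm2 at 4.27 to 16.9 CPM (median 6.33) in CS and 13.3 to 27.6 CPM (median 23.4) in PH, the latter with overlapping groups. Ccnd1, the cyclin of entry into the cycle, fell, at 148 to 455 CPM (median 227) in CS and 21.8 to 76.1 CPM (median 35.4) in PH. The log2 fold changes of Mki67, Kif11 and Mcm6 were -3.61, -3.46 and 1.99 with all mice and -2.26, -2.34 and 2.68 without mouse 552.

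**Figure D4:**
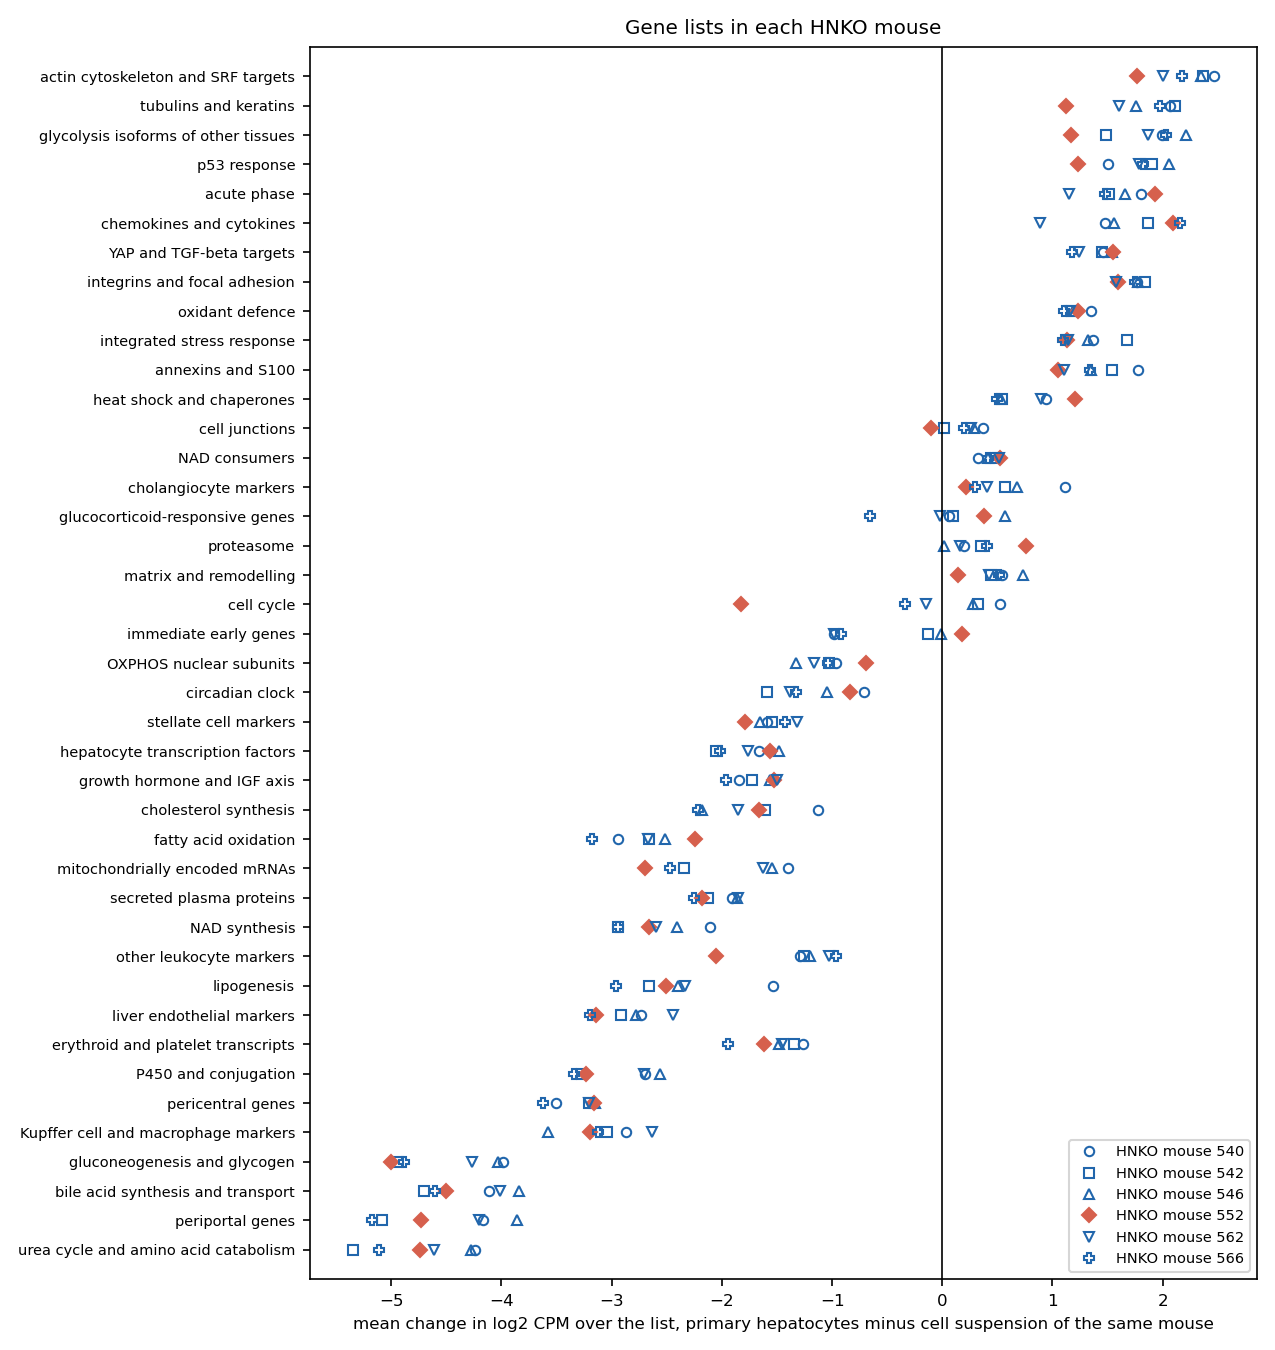
Mean log2 change (PH minus CS) of gene lists in each of the 6 HNKO mice, 1 point per mouse. The hepatocyte lists are below 0 and the actin list above 0 in every mouse, and in the cell cycle list mouse 552 lies at -1.82 against -0.34 to 0.53 for the others.

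Most tested markers of macrophages, liver endothelium, stellate cells, other leukocytes and blood fell, whereas 12 of 17 tested cholangiocyte markers were not called. The summed level of all 17 was higher in PH, and that sum includes Tm4sf4, which hepatocytes also express. Of 20 Kupffer cell and macrophage markers, 16 fell and 4 rose, with a median of -3.92. Their summed level was 534.6 to 2269 CPM (median 688.5) in CS and 443.6 to 1181 CPM (median 805.3) in PH. The summed level thus overlapped between the groups and its median was higher in PH. The resident macrophage markers Clec4f, Vsig4 and Cd5l were nearly gone from PH, with Clec4f at 96.5 to 366 CPM (median 113) in CS and 0.0508 to 3.85 CPM (median 0.984) in PH, Vsig4 at 24.4 to 121 CPM (median 32.3) and 0 to 0.983 CPM (median 0.133), and Cd5l at 91 to 450 CPM (median 120) and 0.203 to 1.61 CPM (median 0.343). Adgre1, which encodes F4/80, was 11.6 to 63.3 CPM (median 17.9) in CS and 0.329 to 2.36 CPM (median 0.818) in PH. Other myeloid genes rose. Cd14, the endotoxin co-receptor, was 2.82 to 11.2 CPM (median 6.63) in CS and 142 to 590 CPM (median 226) in PH, Cd68, a lysosomal protein, was 6.61 to 44.2 CPM (median 11.6) and 39.9 to 352 CPM (median 193), and Mpeg1, a pore-forming protein of macrophages, was 57.8 to 208 CPM (median 76.8) and 171 to 469 CPM (median 328). The groups overlapped for Cd68 and Mpeg1. Itgam, at 0.164 to 1.91 CPM (median 0.447) and 0.508 to 6.53 CPM (median 1.49), was called at adjusted p = 0.0425 and lost that call when any of 5 of the 6 mice was left out. Without mouse 552 the log2 fold changes of Vsig4 and Cd68 were -7.95 and 4.36, from -7.20 and 3.52. Cd38 and Hk3, both expressed by leukocytes, fell along with the resident markers, whose part in those results was not tested.

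Of 20 liver endothelial markers, 17 fell and none rose, with a median of -2.69 and a summed level of 894.6 to 2144 CPM in CS and 162.7 to 311.7 CPM in PH. Kdr, the VEGF receptor, was 91.4 to 229 CPM (median 107) in CS and 0.768 to 3.54 CPM (median 1.81) in PH, Dnase1l3, a secreted DNase, was 94.8 to 231 CPM (median 111) and 0.987 to 3.29 CPM (median 1.99), and Stab2, a scavenger receptor of sinusoids, was 97.6 to 247 CPM (median 136) and 14 to 34 CPM (median 22.5). Pecam1, a general endothelial marker, was 23.8 to 74.1 CPM (median 37.4) in CS and 17.8 to 43.4 CPM (median 30.4) in PH, a log2 fold change of -0.53 with TMM scaling and 0.09 on library totals alone. Of 19 tested stellate cell markers, 12 fell and 1 rose, with a median of -1.48 and a summed level of 368.5 to 1731 CPM in CS and 225.2 to 702.7 CPM in PH. Lrat, which stores retinol, and Colec11, a stellate cell lectin, had log2 fold changes of -3.74 and -4.90. Des, a muscle-type filament of stellate cells, was 1.85 to 8.28 CPM (median 2.83) in CS and 0.711 to 3.58 CPM (median 1.05) in PH, and Acta2, smooth muscle actin, rose, at 0 to 3.22 CPM (median 0.446) in CS and 0.711 to 9.32 CPM (median 1.49) in PH. Both were low, with overlapping groups.

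The bile duct markers Krt19 and Epcam were low in both sample types, Krt19 at 0.18 to 0.901 CPM (median 0.612) in CS and 0.173 to 1.4 CPM (median 0.406) in PH, and Epcam at 0.24 to 1.06 CPM (median 0.725) and 0 to 0.711 CPM (median 0.42), and neither was called. Of 17 tested cholangiocyte markers 4 rose and 1 fell, with a summed level of 273.4 to 423.4 CPM in CS and 821.9 to 1245 CPM in PH. Sox9 and Tm4sf4, a membrane protein that hepatocytes also express, were among those that rose, Tm4sf4 at 119 to 160 CPM (median 137) in CS and 457 to 620 CPM (median 589) in PH. Other leukocyte markers fell in 13 of 16 cases, with a median of -2.56 (-2.51 with members at 0 counts set at their bound), from a summed level of 9.59 to 46.7 CPM in CS to 0.762 to 4.13 CPM in PH. Ptprc, the common leukocyte antigen, was 6.37 to 28.7 CPM (median 8.31) in CS and 0.457 to 2.28 CPM (median 1.39) in PH. With the mouse as a block in a fit of the compared groups, 2 leukocyte markers passed the filter and both fell, and 3 of 5 erythroid and platelet transcripts fell. Of 9 tested erythroid and platelet transcripts, 5 fell, with a median of -3.03 (-1.73 with members at 0 counts set at their bound), and Hbb-bs, a globin gene with a near-identical copy, was at 0.0763 to 3.22 CPM (median 0.367) in CS and 0 to 0.302 CPM (median 0.0762) in PH (adjusted p = 0.0139, and 0.205 without mouse 552). The suspension held RNA of several non-parenchymal cells, and its part in the other results was not tested.

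The culture change in HNKO was set against that in WT, in which 11208 genes (75.1%) were called, 5715 higher (38.3%) and 5493 lower (36.8%). Of all genes, 10063 were called in the same direction in both genotypes and 14 in opposite directions, and the 2 contrasts share no library. A test of the difference itself (HNKO change minus WT change) called 33 of 14932 genes (0.221%), 6 higher (0.0402%) and 27 lower (0.181%), against 2116 at an unadjusted p under 0.05. Fitting only the CS and PH libraries gave 8 calls, and adding the mouse as a block to that fit gave 1, Cib3, which was not among the 33, with 2137 at an unadjusted p under 0.05. Leaving out 1 mouse at a time gave 5 to 647 calls. The count was 647 without WT mouse 544, 153 without HNKO mouse 546 and 5 to 13 without any of the other 10.

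Hmox1 (chr8:75093621-75100589), which encodes the heme-degrading enzyme heme oxygenase 1, was 23.6 to 73.8 CPM (median 40.8) in HNKO CS and 76.3 to 151 CPM (median 95.2) in HNKO PH. WT libraries had 20.2 to 30.8 CPM (median 23.7) in CS and 148 to 416 CPM (median 214) in PH. It rose in both genotypes, by 1.29 ± 0.26 in HNKO and 3.45 ± 0.28 in WT (log2 ± SE). The difference was -2.16 (SE 0.36, adjusted p = 0.00559), and in the fit of CS and PH libraries with the mouse block it was -2.01 with an adjusted p of 0.1125. Ccdc120, a centriole-associated protein, rose by 3.29 in HNKO and 5.80 in WT, a difference of -2.51 (adjusted p = 0.00559). Both genes, with E2f6 and Pcgf6, kept the call when any 1 of the 12 mice was left out.

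Of the other genes whose change was lower in HNKO, Csrp3 differed by -3.67, Fut1, a fucosyltransferase, by -4.55, Ackr3, a chemokine scavenger receptor, by -4.44, Plcl1, a phospholipase C-like protein, by -3.13, Hivep3, a zinc-finger protein, by -2.56 and Apold1, an endothelial early response gene, by -2.29 on the log2 scale. Fut1 had no count in HNKO PH, at least 38.8-fold lower than in HNKO CS, so its fitted values are not bounds. Stab2 had log2 fold changes of -2.78 in HNKO and -1.28 in WT, with a difference of -1.49 (adjusted p = 0.0426). The 6 genes whose change was higher in HNKO differed by 0.61 to 1.17. Jade2, a chromatin factor, had log2 fold changes of 1.58 in HNKO and 0.40 in WT, those of Zfp467 were -1.995 and -3.12, and the others were Fn3krp, Sdc2, a cell-surface proteoglycan, Dlg3 and Aes, with differences of 0.80, 0.70, 0.65 and 0.61.

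The PH library of WT mouse 544 had a mean Pearson correlation of 0.954 (log2 CPM) with the other WT PH libraries, which had 0.976 to 0.981. By Spearman correlation with the PH libraries of both genotypes it did not stand apart, at 0.9707 against 0.9686 to 0.9767. That mean includes HNKO libraries, so it cannot show a departure from WT alone. The library held 1.93% of counts in mitochondrially encoded mRNAs, against 3.98 to 5.53% in the other WT PH and 2.61 to 3.33% in HNKO PH. It held 4.52% in Alb, against 5.28 to 6.71% and 3.66 to 5.54%. Its Cxcl5 level was 100.9 CPM, against 0.347 to 0.9 CPM in the 5 other WT PH libraries and 9.25 to 274 CPM (median 44.2) in HNKO PH. With mouse 544 included, Cxcl5, G6pc and Saa3 were not called (differences of 5.12, -3.72 and 1.92 on the log2 scale, adjusted p = 0.671, 0.0601 and 0.354). Without it the differences were 10.17, -3.98 and 3.17, with adjusted p of 0.0446, 0.0105 and 0.0339. Arg1 (-2.47), Cps1 (-2.84), Pck1 (-2.79), Slc2a2 (-1.91) and Tat (-2.22), genes of urea, glucose and amino acid metabolism, were then called as well, chosen here after their values were seen. Whether this library or the other 5 better represents WT culture was not tested. PH minus CS values in HNKO rest on WT libraries only through scaling, the filter and the shared estimate of spread.

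**Figure D5:**
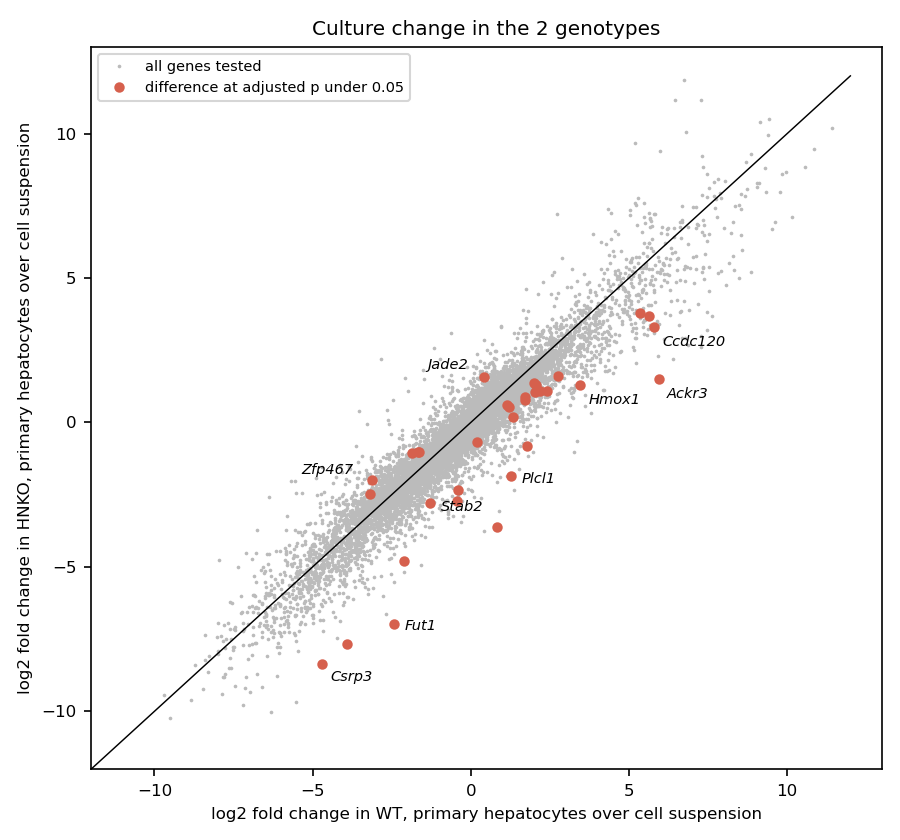
Culture change (PH minus CS, log2) of each tested gene in WT on the horizontal axis and in HNKO on the vertical axis, with red points for genes whose difference was called and a line where both changes are equal. Most points lie near the line, and 33 of 14932 genes are marked, with Hmox1 at 1.29 in HNKO and 3.45 in WT.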

How the data were processed

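RNA of 36 libraries (liver, cell suspension and primary hepatocytes of 6 HNKO and 6 WT mice) was depleted of ribosomal RNA and sequenced. Per the labels and the study's methods, the authors aligned reads to GRCm38 with STAR (2.7.2b in the labels, whereas the study's methods give an earlier version for the liver and hepatocyte libraries) and counted fragments with both ends aligned using featureCounts 1.6.4. The values used are the raw counts per gene that the authors deposited, for 54232 genes. The libraries were stranded, but how strand was treated in counting is not given in the sources used here, so counts of antisense and overlapping genes are uncertain, as are those of close paralogs. Symbols and coordinates came from GENCODE M21 (54165 genes matched, and the other 67 held 0.0013% of counts), although the study names M22. No column of samples was left unmapped.

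The WT liver library of mouse 558 (2547422 counts, mean Spearman correlation 0.80 with the other livers of both genotypes, against 0.946 to 0.98 for the other 35 libraries with their own sample type) was left out. The study states that it left out a library of low quality and does not name it. filterByExpr with a minimum count of 10 kept 14932 genes. edgeR 4.0.16 in R 4.3.3 was run with TMM scaling and 1 coefficient per group over 35 libraries and 6 groups, without a mouse term, as in the study's methods. Its quasi-likelihood F test (legacy form, two-sided) gave adjusted p by Benjamini-Hochberg over the 14932 genes, with calls under 0.05. SE was obtained as the size of the log2 fold change over the root of F. CPM are TMM-scaled and log2 CPM carry a prior count of 2. Levels in CPM are not corrected for gene length. A group with 0 counts was set at 3 counts for bounds, and counting intervals are exact 95% intervals.

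Libraries with the same mouse number came from the same animal. After removal of group means, CS and PH libraries of the same mouse correlated at 0.0199 to 0.416 (median 0.246) over 12645 genes, against -0.374 to 0.213 (median -0.0453) for different mice. The mouse was therefore also fitted as a block, in fits of the compared groups only.

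Named genes were Nampt, Alb, the 12 called genes that rose most and the 12 that fell most (predicted genes excluded, mean of 10 CPM or more in whichever group was higher), the 8 largest genotype differences per direction (mean of 1 CPM or more), for every list at most 6 members ranked by p, called members moving against their list, and defining markers of other cells. The comparison, its members, the 41 gene lists and this rule were chosen with earlier results of these data known, so no list was tested and lists are described by counts and medians. Some genes that this rule names are not reported here. The fit was tested on simulated counts. Alternatives were other scaling factors, DESeq2 1.42.0, no filter, only the groups compared, the mouse block, all 36 libraries and leaving out each mouse.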

Additional observations from a re-analysis of the deposited data

Results flagged for a closer look

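Of 78 groups of 6 values examined, 6 held a value far from the others, where chance gives about 1 in 20. In mouse 552 the mean change of the cell cycle list was -1.82 (-0.34 to 0.53 in the other 5 mice) and that of other leukocyte markers was -2.05 (-1.29 to -0.96). The CS library of mouse 552 held 12.6% of counts in mitochondrially encoded mRNAs (4.70 to 7.26% in the others). The CS library of mouse 540 held 7.91% of counts in Alb (10.5 to 11.9% in the others), and that of mouse 562 had a total of 20350519 counts (14157949 to 15249789). The change of Cyp8b1 was -7.55 in mouse 562 and -10.45 to -9.49 in the others.

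The change from CS to PH differed between HNKO and WT, by the test of the difference, for these named genes. It was lower in HNKO for Fut1 (-4.55), Ackr3 (-4.44), Csrp3 (-3.67), Plcl1 (-3.13), Hivep3 (-2.56), Ccdc120 (-2.51), Apold1 (-2.29) and Hmox1 (-2.16), all on the log2 scale. It was higher in HNKO for Jade2 (1.17), Zfp467 (1.12), Fn3krp (0.80), Sdc2 (0.70), Dlg3 (0.65) and Aes (0.61). In a fit of the CS and PH libraries only, Hmox1, Ccdc120 and Aes kept their call, and with the mouse as a block added to that fit none of these 14 was called.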

How the results depend on the processing

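The count of genes called in HNKO PH against CS was 9914 to 12548 under the 8 other settings (11310 as reported) and 10718 to 11013 with 1 mouse left out (5384 to 5500 higher, 5334 to 5521 lower). On library totals alone the calls were 8641 higher and 3578 lower, or 70.7% higher against 50.3%. Fitting only the 12 libraries compared gave 9914 calls, and adding the mouse as a block to that fit gave 10013 (4950 higher and 5063 lower). The blocked fit ended the call of no named gene in this comparison. Nampt kept its direction and call under every setting, with log2 fold changes of 0.87 to 1.56, and 0.84 to 1.02 with 1 mouse left out. Over named genes, the call and direction held for 1311 of 1320 values under other settings and 986 of 996 with 1 mouse left out, and the exceptions were Itgam, Pecam1, Des, Acta2 and Hbb-bs. The direction turned for Pecam1 (0.094) and the matrix list median (0.44) on library totals alone, and for the cell cycle list median without mouse 552 (-0.78 to 0.29 with 1 mouse left out). The cause was not tested.

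The genotype difference was much less stable than its 33 calls (6 higher, 27 lower). DESeq2 called 294 (72 and 222), of which 32 were among the 33. The CS and PH libraries alone gave 8 (1 and 7), those with the mouse block 1 (0 and 1) and all 36 libraries 3 (1 and 2). Library totals gave 27 (3 and 24) and no filter gave 41 (1 and 40). Upper-quartile factors gave 25 (6 and 19) and DESeq2 size factors in edgeR gave 33 (6 and 27). Leaving out 1 mouse gave 5 to 647 calls, 0 to 242 higher and 5 to 405 lower. The cause was not tested. For genes at 0 counts in a group, fitted fold changes depend on the prior count and are no bounds.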
